A study of Mus musculus with 24 samples.

Results

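The cytosolic ribosomal protein genes were described in splenic natural killer (NK) cells of mice that carried a lymphoma and of mice that did not. The members are the 87 protein-coding genes, of 45237 genes in the count table, whose symbol begins with Rpl or Rps and a digit, plus Rpsa, Rplp0, Rplp1, Rplp2 and Fau. S6 kinase genes and pseudogenes were left out by the rule. Of the 87, 34 encode small subunit proteins or their variants and 52 encode large subunit proteins or their variants. Rps19bp1 entered by its symbol alone, since it encodes a protein that binds the small subunit protein S19.

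Bulk RNA-seq of poly(A) RNA was available from 24 libraries in 7 groups, all from wild-type C57BL/6J mice, which the study's methods give as females of 7 to 9 weeks unless stated otherwise. The control group held 4 libraries from mice without a tumor. RMA, a T cell lymphoma line, was injected intravenously and NK cells were taken on day 2, day 4 and day 9, with 3 libraries each. RMA-KR, a cloned RMA line that lacks B2m and carries lentiviral Rae1-β, a ligand of the activating receptor NKG2D, was injected the same way, with 3 libraries on day 2, 5 on day 7 and 3 on day 14. NK cells had been sorted as NKp46- or NK1.1-stained cells negative for CD3, CD5 and T cell receptors, among other markers. The libraries held between 5138651 and 14863500 counts on genes, with a median of 10489204. The labels number the mice within a group but do not say how cages or sorts were shared, so the p-values measure the spread between these samples.

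The cytosolic ribosome joins a small subunit, which decodes the mRNA, to a large subunit, which forms the peptide bond. Most mRNAs of its proteins begin with a terminal oligopyrimidine (TOP) tract, a C followed by a run of C and T bases, through which mTORC1 signaling and the protein LARP1 set how much of the mRNA is translated and kept. NK cells at rest make little protein, and they raise mTORC1 activity and translation when cytokines or target cells activate them.

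The TOP tract was looked for at the gene starts listed by RefSeq on GRCm38.p6, as a C followed by at least 4 bases that were each C or T, on the strand of the gene only. Of the 87 members, 67 had a listed start, and 15 of the 67 (22.4%) had a start lying exactly at such a C, against 813 of 27025 genes in the same table (3.0%). Within 10 bases of a start the run began in 41 members (61.2%) and in 9297 genes (34.4%). The following windows hold 30 bases before and 20 bases from the listed start, at the 5′ end of the first exon, for members that the results turn on; capitals mark the run where it began within 10 bases. Rps6 (chr4:86857348-86857397, minus strand), Fau (chr19:6057917-6057966, plus strand), Rplp2 (chr7:141447621-141447670, plus strand) and Rps27 (chr3:90213629-90213678, minus strand) had the run across the start, Rps2 (chr17:24720033-24720082, plus strand) had it from base 5 on, counting the start as base 1, and Rplp0 (chr5:115559437-115559486, plus strand) and Rpl4 (chr9:64173357-64173406, plus strand) had none there.
Rps6: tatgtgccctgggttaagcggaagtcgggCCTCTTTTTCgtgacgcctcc
Fau: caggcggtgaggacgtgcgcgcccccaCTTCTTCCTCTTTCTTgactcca
Rplp2: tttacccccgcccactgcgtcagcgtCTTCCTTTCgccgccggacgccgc
Rps27: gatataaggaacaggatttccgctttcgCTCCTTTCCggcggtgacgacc
Rps2: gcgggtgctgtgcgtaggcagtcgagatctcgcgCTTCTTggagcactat
Rplp0: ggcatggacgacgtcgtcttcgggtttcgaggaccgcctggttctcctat
Rpl4: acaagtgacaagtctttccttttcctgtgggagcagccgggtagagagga
Rplp0, Rps2 and Rpl4 are described below as higher from day 4 on, and Rplp2 as low in most RMA-KR libraries. Whether a run at the start goes with the direction of a member was not tested. Which starts these NK cells used was not measured.

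Per kilobase of transcript, the members differed widely in level. Levels are given as normalized CPM, in which each library's counts are taken relative to its total after scaling by the trimmed mean of M values (TMM). Means over the 24 libraries were divided by the median length of the gene's transcripts. Rpl4, which lines the peptide exit tunnel, stood highest at 1837 normalized CPM per kb. Rps3, at the mRNA entry site of the small subunit, followed with 1046, and then Rplp0, the base of the P-stalk, with 894.5. Rpl8, near the peptidyl transferase center, was also among the highest, with 679.6. At the other end of the 84 members that were tested, Rpl35 stood at 4.57 normalized CPM per kb, Rpl17 at 2.95, Rps10 at 1.94, Rpl24 at 1.79 and Rpl23a at 1.27. The highest tested member exceeded the lowest 1451 times, although each ribosome holds 1 copy of most of its proteins. Their median was 45.8 normalized CPM per kb against 12.9 in the 13321 other protein-coding genes tested, and 69 of the 84 lay above that median.

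How much of each transcript can be told apart from other genes was measured with stretches of 50 bases, the read length of the study. In 83 of the 87 members the longest coding transcript shared at least 1 stretch with another annotated gene. The share of stretches found in no other gene ran from 8.9% to 100%, with a median of 59.8%. Members with little unique sequence had lower levels per kb, with a median of 24.7 in the 19 tested members under 30% unique and of 101 in the 16 over 80% unique. Across the 84 tested members Spearman's correlation of level per kb with the unique share was 0.41, a description over genes that share sequence and libraries. Rps6, the substrate of S6 kinase, was 15.4% unique and stood at only 7.81 normalized CPM per kb. How reads that match several places were counted is not given in the sources used here, so the level of a member with a low unique share is uncertain, and levels between members carry this limit.

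**Figure D1:**
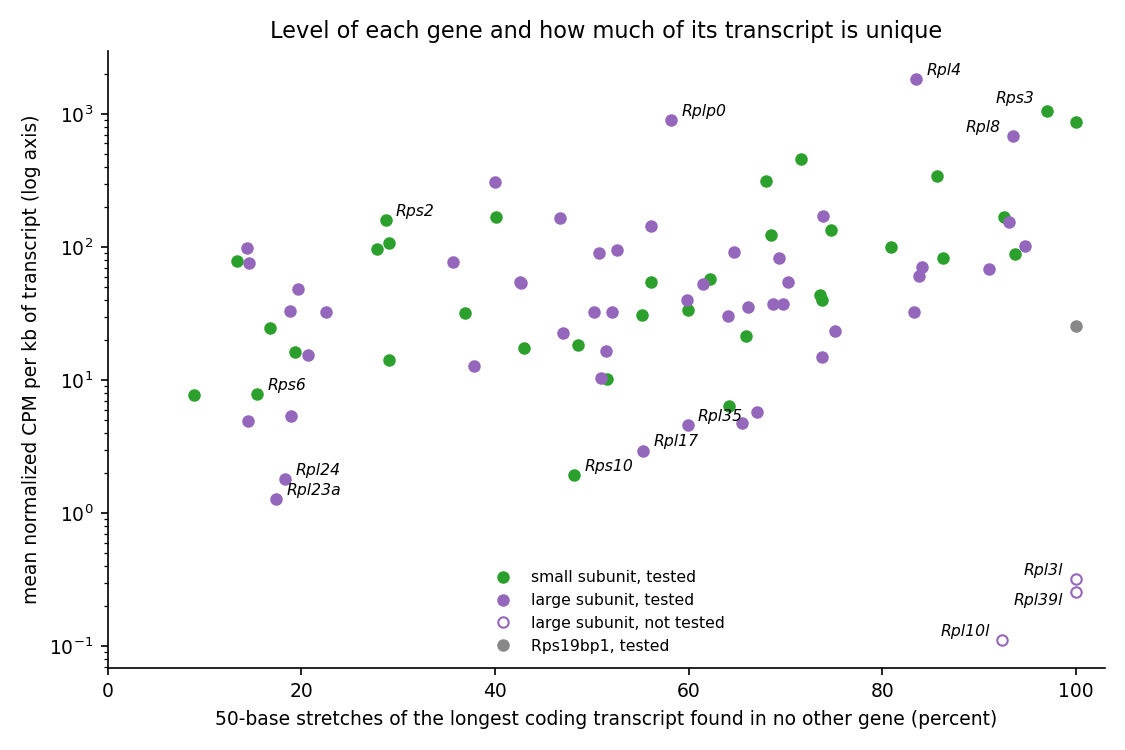
Mean normalized CPM per kb of transcript (log axis) against the percent of 50-base stretches found in no other gene, 1 point per member, open where the member was not tested. Rplp0 at 894.5 and Rpl4 at 1837 are 58.2% and 83.5% unique, and Rpl24 and Rpl23a, the lowest tested, are 18.3% and 17.4% unique.

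The variants of ribosomal proteins were compared with their parents per kb. Rpl3l, a striated muscle form of Rpl3, Rpl10l, a testis form of Rpl10, and Rpl39l, a testis form of Rpl39, were not tested: they had 77, 29 and 40 counts over all 24 libraries. Their levels per kb were 0.00325, 0.00148 and 0.00421 times those of their parents. Rps27l exceeded its parent Rps27 by 2.55 times and Rpl36al exceeded Rpl36a by 4.77 times. Rps27 and Rpl36a were 36.9% and 14.5% unique, and Rps27l and Rpl36al 86.3% and 75.1%, so these ratios are uncertain. The other tested variants were below their parents, Rpl22l1 at 0.523 times Rpl22, Rpl7l1 at 0.416 times Rpl7 and Rps27rt at 0.242 times Rps27. Rps19bp1 stood at 0.191 times Rps19.

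Several libraries stood apart from the rest in genes other than the members. In control replicate 4 and RMA-KR day 7 replicates 3, 4 and 5, immediate early and handling genes took 0.349% to 0.421% of the counts, against 0.809% to 1.74% in the other 20 libraries. A share under 0.5% is the rule that set these libraries apart, so this gap is no separate evidence. These 4 libraries had a count on 24621 to 27820 genes against 15263 to 24234, and the NK cell list took 2.73% to 3.19% of their counts against 3.23% to 4.44%. Gzma, the most abundant gene of that list, stood at 4434 to 6051 normalized CPM in them and at 7760 to 16400 in the other 20. The ILC1 list took 0.0140% to 0.0238% of their counts against 0.00240% to 0.0111%. No label sets these libraries apart from others of their group. Results are given with all 24 libraries and, where they differ, with the 20 others, an alternative chosen after the data were seen.

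The members together took a small and variable share of each library's counts. The share was 0.861, 0.806, 0.771 and 0.898% in the control libraries, 0.665, 0.737 and 0.761% on RMA day 2, 0.998, 0.718 and 0.775% on day 4 and 0.866, 0.934 and 0.874% on day 9. For RMA-KR it was 0.462, 0.594 and 0.585% on day 2, 0.681, 0.632, 1.12, 1.16 and 1.22% on day 7 and 0.819, 0.753 and 0.677% on day 14. The RMA-KR day 2 libraries thus lay below every other library, and the day 7 libraries split into the 2 kept, at 0.681% and 0.632%, and the 3 that stood apart, above 1.1%. Group means were 0.834% ± 0.0569 (SD, n = 4) in control, 0.721% ± 0.05001 (n = 3) on RMA day 2, 0.830% ± 0.148 (n = 3) on day 4 and 0.892% ± 0.0368 (n = 3) on day 9. For RMA-KR they were 0.547% ± 0.0735 (n = 3) on day 2, 0.963% ± 0.283 (n = 5) on day 7 and 0.750% ± 0.0708 (n = 3) on day 14. The mean of the 2 kept day 7 libraries was 0.657%. Counting error was far smaller than these spreads, the 95% Wilson interval of the lowest library, RMA-KR day 2 replicate 1, being 0.458% to 0.467% and that of the highest, RMA-KR day 7 replicate 5, 1.215% to 1.229%. Such intervals cover counting error only. In bulk RNA, fewer cells of a type and less RNA per cell cannot be told apart.

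**Figure D2:**
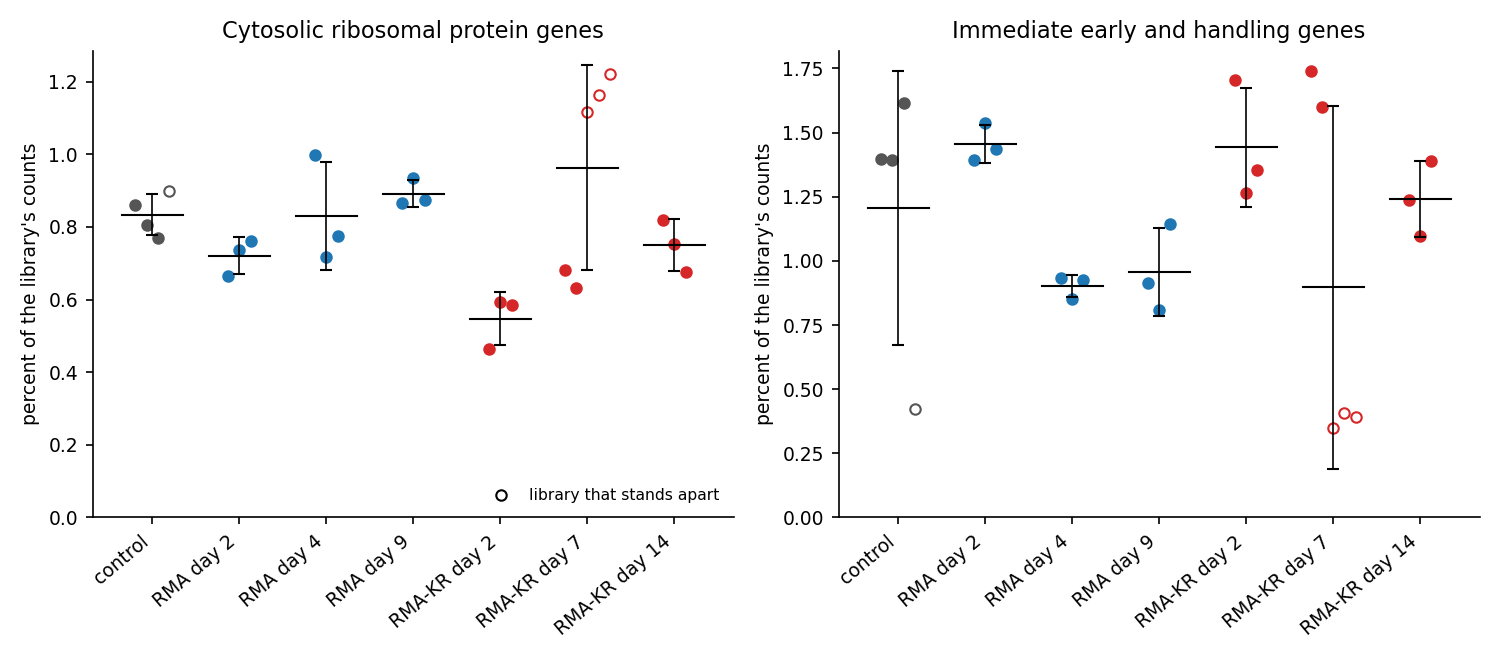
Percent of each library's counts on the 87 ribosomal protein genes (left) and on immediate early and handling genes (right), 1 point per library, with group means and SD. Open points are the 4 libraries that were set apart by their values on the right. The 3 open RMA-KR day 7 points lie at 1.117% to 1.222% on the left and are among the 4 lowest on the right, and RMA-KR day 2 holds the lowest shares on the left, 0.462% to 0.594%.

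Large subunit members took more counts than small subunit members in every library. The ratio of large to small was 1.196 ± 0.0466 (SD, n = 4) in control, 1.28 ± 0.0654 (n = 3) on RMA day 2, 1.34 ± 0.0670 (n = 3) on day 4 and 1.26 ± 0.0581 (n = 3) on day 9. For RMA-KR it was 1.32 ± 0.0178 (n = 3) on day 2, 1.28 ± 0.112 (n = 5) on day 7 and 1.43 ± 0.0748 (n = 3) on day 14. The RMA-KR day 14 libraries, between 1.35 and 1.49, lay above the control libraries, which reached 1.254. So did the RMA day 4 libraries, between 1.265 and 1.396, the RMA-KR day 2 libraries, between 1.308 and 1.339, and the 2 kept RMA-KR day 7 libraries, at 1.288 and 1.464. The ratio weighs members by their counts, of which 5 members held 56.22%. Per member, the median log2 value against control was -0.40 for large and -0.34 for small subunit members on RMA-KR day 14. These medians were -0.72 and -0.63 on RMA-KR day 2, and -0.02 and -0.04 on RMA day 4. Pseudogenes of ribosomal proteins, 401 in the table, took 0.00788% to 0.0206% of the counts. They were highest in the 4 libraries that stood apart, from 0.0162% to 0.0206%. RMA-KR day 7 replicates 3 to 5 also had the highest shares of the members. In control replicate 4 the members, at 0.898%, were below RMA day 4 replicate 1, at 0.998%. The part of pseudogenes in the members' share was not tested.

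Of the P-stalk, which recruits the elongation factors to the large subunit, Rplp0 is the base and Rplp1 and Rplp2 are the acidic proteins bound to it. Rplp0 stood at 532, 569, 464 and 582 normalized CPM in control, at 334, 497 and 510.0 on RMA day 2, at 786, 784 and 826 on day 4 and at 949, 949 and 836 on day 9. With RMA-KR it stood at 387, 520.1 and 529 on day 2, at 654, 634, 808, 800.4 and 963 on day 7 and at 1071, 872 and 760.0 on day 14. Each library from RMA day 4 or later and from RMA-KR day 7 or later was above all control libraries, and the day 2 libraries of either tumor overlapped control. Rplp0 rose on RMA day 9 against control by 0.76 ± 0.17 (log2 fold change ± SE; adjusted p = 0.0112, from the quasi-likelihood test of edgeR, adjusted after Benjamini and Hochberg over 17097 genes). It rose on RMA-KR day 14 against control by 0.75 ± 0.17 (adjusted p = 0.0242, same edgeR test). On RMA day 4 the value of 0.57 ± 0.17 did not pass (adjusted p = 0.0741), nor did that of 0.52 ± 0.15 on RMA-KR day 7 (adjusted p = 0.497). Leaving out control replicate 3 or RMA day 9 replicate 1 or 2 ended the RMA day 9 call, at log2 values of 0.67 to 0.77. The RMA-KR call ended without any of the 4 control libraries or without RMA-KR day 14 replicate 1 or 2, at 0.58 to 0.78. It also ended with total counts, at 0.67, and with only the 2 groups fitted, at 0.76.

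Rplp2 stood at 40.9, 48.97, 45.6 and 53.3 normalized CPM in control, at 43.2, 53.6 and 44.96 on RMA day 2, at 75.5, 38.1 and 49.7 on day 4 and at 27.02, 32.6 and 31.1 on day 9. With RMA-KR it stood at 14.6, 13.7 and 13.6 on day 2, at 20.7, 11.4, 57.4, 69.3 and 67.3 on day 7 and at 16.5, 18.01 and 14.1 on day 14. All RMA-KR libraries except the 3 that stood apart were below every control and RMA library, while those 3 were above every control library. The log2 value against control was -1.76 ± 0.44 on RMA-KR day 2 and -1.54 ± 0.43 on day 14 (adjusted p = 0.143 and 0.0912 by the edgeR test), so neither passed with all libraries. With the 20 libraries, Rplp2 passed on RMA-KR day 14, at -1.44 ± 0.32 (adjusted p = 0.0488 by the edgeR test). Rplp1 stood at 142, 178, 164 and 208 in control and 69.3, 80.7 and 88.9 on RMA-KR day 2. Its day 7 libraries stood at 114, 106, 255, 276 and 289.6 and its day 14 libraries at 123, 121 and 75.3. In Rplp1, too, the RMA-KR day 2, day 7 replicates 1 and 2 and day 14 libraries were below control, and day 7 replicates 3 to 5 above it. On the late RMA-KR day 14, then, the base of the stalk was higher than in control and its acidic proteins had lower values, in the same libraries.

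Rpl8 stood at 706, 664, 591 and 756 normalized CPM in control, at 492, 499 and 598 on RMA day 2, at 871, 605 and 657 on day 4 and at 523, 534 and 707 on day 9. With RMA-KR it stood at 215, 199.9 and 238 on day 2, at 395, 357, 979, 1035 and 1073 on day 7 and at 399, 452 and 334 on day 14. The RMA-KR libraries other than the 3 that stood apart were below all control and RMA libraries, and those 3 were above all of them. Rpl8 fell on RMA-KR day 2 against control, with a log2 fold change of -1.64 ± 0.30 (adjusted p = 0.0265, edgeR's quasi-likelihood test). Leaving out any 1 of the 7 libraries of that comparison ended the call, at log2 values of -1.71 to -1.57, while with the 20 libraries it stayed, at -1.56 ± 0.17 (adjusted p = 0.000536). It ended with scaling by total counts, at -1.65. On RMA-KR day 7 the value was 0.18 ± 0.25 with all 5 libraries and -0.78 ± 0.19 with the 2 kept (adjusted p = 0.999 and 0.733 by the edgeR test).

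Rpl39, a small protein of the exit tunnel, had the lowest log2 value of the 84 tested members on RMA-KR day 2. Its values were 49.6, 44.2, 38.1 and 35.9 normalized CPM in control, 7.31, 10.9 and 11.48 on RMA-KR day 2, 18.6, 10.8, 52.97, 49.01 and 51.1 on day 7 and 17.2, 14.02 and 12.3 on day 14. Day 7 replicates 3 to 5 lay at the level of the highest control library, and the other RMA-KR libraries lay below every control library. With RMA, Rpl39 stood at 43.25, 35.69 and 42.72 on day 2 and at 63.71, 21.52 and 24.01 on day 4. Its RMA day 9 values were 26.85, 31.65 and 26.83. The RMA day 9 libraries, RMA day 4 replicates 2 and 3 and, narrowly, RMA day 2 replicate 2 were also below every control library. The log2 value on RMA-KR day 2 against control was -2.08 ± 0.47 (adjusted p = 0.093 by the edgeR test) and did not pass. Rpl4 stood at 1453, 1469, 1393 and 1345 in control, at 1046, 1275 and 1348 on RMA day 2, at 1924, 1535 and 1604 on day 4 and at 1935, 1904 and 1853 on day 9. For RMA-KR it stood at 904, 1373 and 1268 on day 2, at 1517, 1627, 1835, 1669 and 1946 on day 7 and at 2077, 1761 and 1684 on day 14. All libraries of day 4, 7, 9 and 14 were above all control libraries. Against control the values were 0.42 ± 0.14 on RMA day 9 and 0.38 ± 0.14 on RMA-KR day 14 (adjusted p = 0.108 and 0.225 by the edgeR test), short of the threshold.

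In the small subunit, Rps2, at the mRNA entry site, was, like Rplp0, above control in every library of day 4 and later. It stood at 107, 107, 119.5 and 115 normalized CPM in control, at 75.99, 125 and 110.2 on RMA day 2, at 183, 169 and 168 on day 4 and at 227, 199.9 and 182 on day 9. With RMA-KR it stood at 101, 99.3 and 79.7 on day 2, at 141, 131, 220.4, 181 and 257 on day 7 and at 229, 198 and 152 on day 14. The day 4, 7, 9 and 14 libraries were all above control, and the RMA-KR day 2 libraries were below it. Rps2 rose on RMA day 9 against control by 0.86 ± 0.21 (log2, adjusted p = 0.0242, edgeR's quasi-likelihood test), and its value on RMA-KR day 14, 0.78 ± 0.21, did not pass (adjusted p = 0.0705). Leaving out any 1 control library or RMA day 9 replicate 1 or 2 ended the call, at 0.80 to 0.86, and so did total counts, at 0.75, and no filter, at 0.86. Only 28.7% of the Rps2 transcript is unique, so its level is uncertain.

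Rpsa, the laminin receptor protein of the small subunit, followed Rpl8 instead. It stood at 73.2, 55.6, 59.6 and 52.9 normalized CPM in control, at 60.3, 57.5 and 65.4 on RMA day 2, at 79.5, 54.98 and 53.7 on day 4 and at 28.2, 37.9 and 50.8 on day 9. With RMA-KR it stood at 17.4, 19.5 and 28.3 on day 2, at 22.4, 34.2, 94.2, 72.04 and 89.5 on day 7 and at 34.01, 30.2 and 19.03 on day 14. RMA day 9, RMA-KR day 2, RMA-KR day 14 and day 7 replicates 1 and 2 were below every control library. Rpl8, by contrast, overlapped control on RMA day 9. The log2 value against control was -1.47 ± 0.39 on RMA-KR day 2 and -1.12 ± 0.38 on day 14 (adjusted p = 0.191 and 0.201 by the edgeR test), and neither passed. Rps6 lay between 1.71 and 11.4 normalized CPM in all 24 libraries, and its lowest adjusted p against control was 0.716, on RMA-KR day 14. Fau, which encodes a ubiquitin-like protein fused to the small subunit protein S30, lay between 6.50 and 15.7, and its log2 values against control ran from -0.13 to 0.38, with overlapping libraries in each comparison.

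Rps27 and its variant Rps27l, a p53 target, went in opposite directions with RMA. Rps27 stood at 33.7, 15.2, 31.4 and 19.5 normalized CPM in control, at 31.1, 7.20 and 13.98 on RMA day 2, at 4.22, 9.00 and 5.49 on day 4 and at 10.3, 12.1 and 10.6 on day 9. Rps27l stood at 22.1, 33.96, 37.3 and 31.4 in control, at 22.8, 43.9 and 27.8 on RMA day 2, at 58.7, 42.3 and 53.05 on day 4 and at 75.9, 91.2 and 37.5 on day 9. The day 4 and day 9 libraries were below control for Rps27 and above it for Rps27l. Rps27 fell on RMA day 4, with a log2 fold change of -2.0 ± 0.51 (adjusted p = 0.0361, edgeR's quasi-likelihood test). Leaving out control replicate 1, 3 or 4 or any RMA day 4 library ended that call, at -2.32 to -1.75, as did leaving out the 4 libraries that stood apart, at -2.1, or testing without a filter, at -1.99. Rps27l rose on RMA day 9 by 1.13 ± 0.31 (adjusted p = 0.0496, same edgeR test), which did not pass with the 20 libraries, at 1.13, without a filter, at 1.13, with total counts, at 1.02, or with only the 2 groups fitted, at 1.16. Any 1 control library or RMA day 9 replicate 1 or 2 left out ended the Rps27l call, at 0.85 to 1.2. With RMA-KR, Rps27 stood at 10.2, 18.9 and 18.6 on day 2, at 17.7, 16.6, 8.70, 12.5 and 14.4 on day 7 and at 11.6, 8.48 and 12.1 on day 14. Rps27l stood at 24.98, 25.9 and 26.4, 36.4, 26.9, 33.98, 35.5 and 44.95 and 27.9, 46.9 and 27.97 on the same days. On RMA-KR day 14 Rps27 was below all control libraries, while Rps27l overlapped control on each day.

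Rps13, of the small subunit body, stood at 48.7, 24.1, 39.5 and 20.5 normalized CPM in control, at 10.5, 19.1 and 12 on RMA day 4 and at 13.1, 15.4 and 25.3 on day 9. With RMA-KR it stood at 24.2, 32.4 and 23.04 on day 2, at 17.4, 22.00, 24.1, 18.7 and 30.3 on day 7 and at 12.6, 10.9 and 10.4 on day 14. The RMA-KR day 14 and RMA day 4 libraries were below all control libraries, of which replicates 1 and 3 were higher than 2 and 4. It fell on RMA-KR day 14, with a log2 fold change of -1.55 ± 0.38 (adjusted p = 0.0414, edgeR's quasi-likelihood test). Leaving out control replicate 1, 2 or 3 or any RMA-KR day 14 library ended the call, at -1.69 to -1.31, and so did leaving out the 4 libraries that stood apart, at -1.69, testing without a filter, at -1.54, and fitting only the 2 groups, at -1.55.

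**Figure D3:**
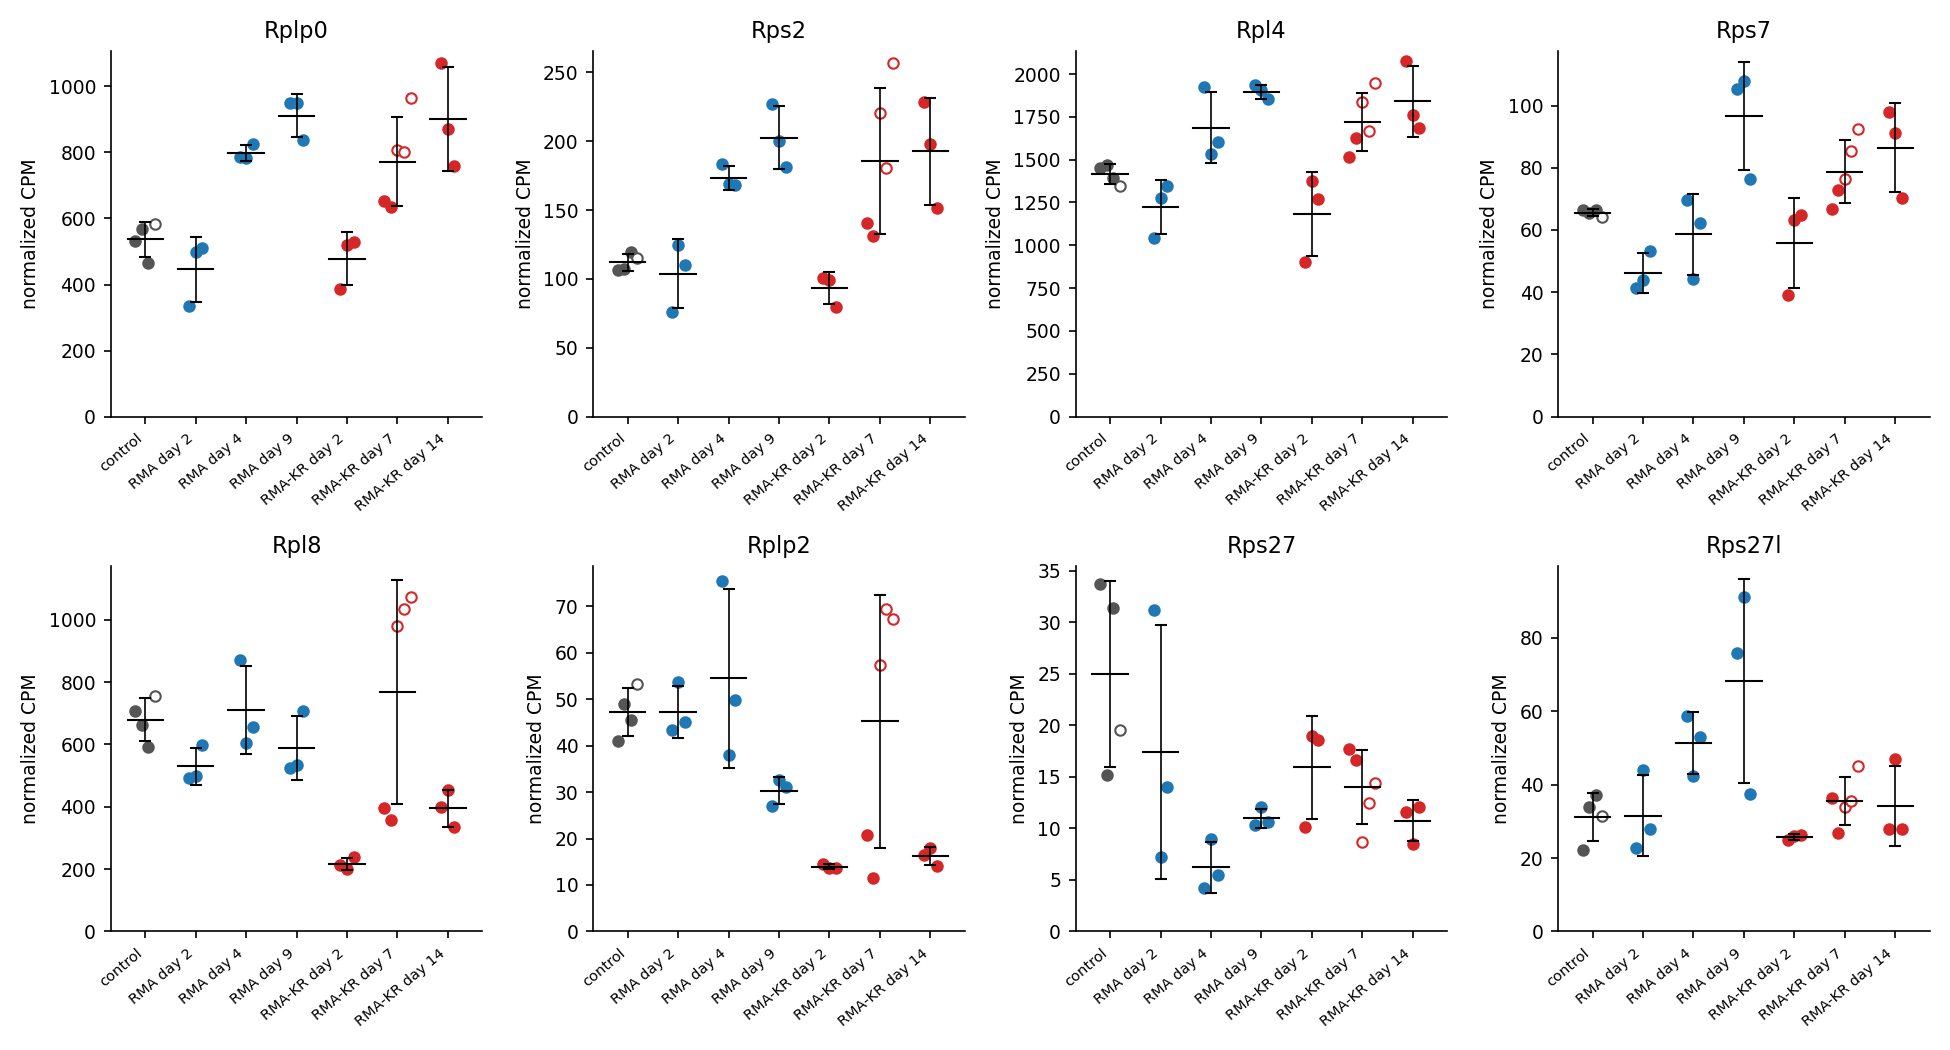
Normalized CPM of 8 members in each library by group, with group means and SD; open points are the 4 libraries that stand apart. Rplp0 reaches 760.0 to 1071 on RMA-KR day 14 against 464 to 582 in control, while Rpl8 stands at 334 to 452 against 591 to 756.

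Each tumor and day was then compared with control across all 17097 tested genes, and the members' calls were read beside those of all genes. A call is an adjusted p under 0.05 from that edgeR test. The 6 comparisons share the 4 control libraries. Lists of cell types, of handling genes and of nuclear RNA whose shares of the counts did not overlap between the groups are given with each comparison, and their part in the members' values was not tested.

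On RMA day 2 no member of the 84 tested was called by edgeR (0% of all genes called, and 0% past a fold of 2), 1 (1.19%) had an unadjusted p under 0.05 against 7.04% of all genes, and DESeq2 called 0 among its 69 called genes. The smallest adjusted p was 0.704, for Rps7. The median log2 fold change of the members was -0.15 against -0.06 over all tested genes, with 26 of 84 higher. The highest values were those of Rpl11, Rpl9 and Rpl36, at 0.96 ± 0.72, 0.91 ± 0.55 and 0.77 ± 0.90, and the lowest those of Rpl28, Rps29 and Rps23, at -0.95 ± 1.1, -0.88 ± 1.01 and -0.73 ± 0.65. Rpl11, which binds Mdm2 outside the ribosome, was high in RMA day 2 replicate 2 only, at 30.1 normalized CPM against 7.45 and 9.49 in the other 2, and so was Rpl9, at 104 against 29.9 and 15.3.

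On RMA day 4, 1 of 84 members was called, Rps27 (2.35% of all genes called). It was also past a fold of 2 (1.65% of all genes). At an unadjusted p under 0.05 there were 12 members (14.3%) against 15.9% of all genes, and DESeq2 called 5 of 84 members and 939 of 17097 genes. The 20 libraries gave 0 members and 1.48% of all genes. For the members the median was -0.02 and that of all genes -0.29, with 37 of 84 members higher. Besides Rps27 the lowest values were those of Rps12 and Rps13, at -1.97 ± 0.79 and -1.26 ± 0.37, and the highest those of Rps27l, Rpl7l1 and Rps2, at 0.72 ± 0.31, 0.70 ± 0.30 and 0.63 ± 0.21. Scaling by total counts in place of TMM moved the median of all genes from -0.29 to -0.41 and that of the members from -0.02 to -0.13, and TMM from genes that are not members put the latter at 0.02, so the members' median has no settled sign there. The dendritic cell list, at 0.0749% to 0.0867% of counts, lay above the control libraries, at 0.0385% to 0.0705%. Itgax made up most of that share, at 759 to 885 normalized CPM against 376 to 659 in control. Of the 6 tested genes of the list 3 had higher values, with a median of 0.21. The T cell list, at 0.0695% to 0.0792% against 0.0810% to 0.0903%, and nuclear retained RNAs, at 0.0236% to 0.0507% against 0.0705% to 0.227%, lay below the control libraries. Handling genes, at 0.853% to 0.932%, lay below the 3 control libraries that did not stand apart, at 1.394% to 1.615%.

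On RMA day 9, 3 of 84 members were called, all higher: Rplp0, Rps2 and Rps27l (2.66% of all genes called). Past a fold of 2 there was 1, Rps27l (1.79% of all genes). Unadjusted p-values under 0.05 were found for 13 members (15.5%) against 14.0% of all genes, and DESeq2 called 5 of 84 members and 1034 of 17097 genes. The median of the members was -0.09 against -0.18 over all genes, with 39 of 84 higher. Without the 4 libraries that stood apart 3 were called (1.68% of all genes), Rplp0, Rps2 and, in place of Rps27l, Rps19. The highest value belonged to Rpl35, at 1.23 ± 0.82, and the lowest to Rps12, Rps27 and Rps27rt, at -1.30 ± 0.77, -1.18 ± 0.49 and -0.95 ± 0.78. On RMA day 9 the macrophage list, at 0.00320% to 0.00499% of counts, lay above every control library, which reached 0.00197%. Cd68 made up most of that share, at 24.8 to 47.7 normalized CPM against 8.64 to 15.85 in control. Nuclear retained RNAs, at 0.0313% to 0.0668%, lay below every control library, and handling genes, at 0.809% to 1.144%, below the 3 that did not stand apart.

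On RMA-KR day 2 most members had lower values than in control: 74 of 84, with a median of -0.63 against 0.00 over all genes. The only call was Rpl8, lower (0.0994% of all genes called), which also passed a fold of 2 (0.0819% of all genes). There were 35 members (41.7%) with an unadjusted p under 0.05, against 8.71% of all genes, and DESeq2 called 16, all lower, among 216 of 17097 genes. Besides Rpl39, Rpl28 was among the lowest, at -1.81 ± 1.13. The highest values were those of Rpl35 and Rpl15, at 0.48 ± 0.82 and 0.39 ± 0.37. The median stayed between -0.64 and -0.60 with DESeq2's size factors, with TMM from genes that are not members, with total counts and with the 20 libraries. Pseudogenes had a median of -0.73 over the 43 tested, with 0 called by edgeR and 2 under an unadjusted p of 0.05, and the part of shared reads in either value was not tested. On RMA-KR day 2 the macrophage list, at 0.00300% to 0.00339% of counts, and the plasma cell list, at 0.0415% to 0.0562%, were above every control library, which reached 0.00197% and 0.0406%. The most abundant genes of these lists overlapped control. Cd68 stood at 5.46, 27.35 and 21.43 normalized CPM against 8.64 to 15.85, and Xbp1 at 268.5, 220.1 and 223.6 against 170.3 to 246.2.

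On RMA-KR day 7 no member of 84 was called by edgeR (0.0175% of all genes called, and 0.0175% past a fold of 2), 4 (4.76%) had an unadjusted p under 0.05 against 5.90% of all genes, and DESeq2 called 2, Rplp0 and Rps2, among 61 genes. At day 7 the members' median was 0.06 and 48 of 84 were higher, with 0.01 over all genes. This rested on the 3 libraries that stood apart: with the 20 libraries the median was -0.50, against -0.14 over all genes, and 13 of 84 were higher. Then, too, edgeR called 0 members (0% of all genes), with 17 under an unadjusted p of 0.05 and 4.87% of all genes. The highest values with all libraries were those of Rps2, Rpl31 and Rps19, at 0.73 ± 0.19, 0.56 ± 0.70 and 0.54 ± 0.20, and the lowest those of Rps6, Rps27 and Rpl28, at -0.97 ± 0.56, -0.83 ± 0.42 and -0.76 ± 0.94. What sets these 3 libraries apart was not tested.

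On RMA-KR day 14, 2 of 84 members were called, Rplp0 higher and Rps13 lower (1.22% of all genes called). Rps13 was past a fold of 2 (0.983% of all genes). There were 25 members (29.8%) with an unadjusted p under 0.05 against 14.2% of all genes, and DESeq2 called 9, of which 7 were lower, among 665 of 17097 genes. For the members the median was -0.39 against -0.18 over all genes, and 66 of 84 were lower. The lowest values were those of Rpl28, Rps12 and Rps21, at -1.93 ± 1.14, -1.83 ± 0.79 and -1.82 ± 0.47, and next to Rplp0 and Rps2 the highest was that of Rpl11, at 0.57 ± 0.72. Without the 4 libraries that stood apart the calls were Rplp0 and, in place of Rps13, Rplp2 (0.574% of all genes called). With only the 2 groups fitted, Rpl39 and Rplp2 were called instead of Rplp0 and Rps13. The macrophage list, at 0.00399% to 0.00767% of counts, and the dendritic cell list, at 0.0804% to 0.0874%, lay above every control library, which reached 0.00197% and 0.0705%. Cd68 made up most of the macrophage share, at 36.1 to 77.8 normalized CPM against 8.64 to 15.85 in control. Itgax made up most of the dendritic cell share, at 787 to 892 normalized CPM against 376 to 659 in control. Of the 6 tested genes of that list 3 had higher values, with a median of 0.05. Beside the 3 control libraries that did not stand apart, the B cell list was higher, at 0.0432% to 0.0581% against 0.0242% to 0.0332%, and handling genes were lower, at 1.096% to 1.391% against 1.394% to 1.615%. Ighm made up most of the B cell share, at 363 to 482 normalized CPM against 232 to 328.

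**Figure D4:**
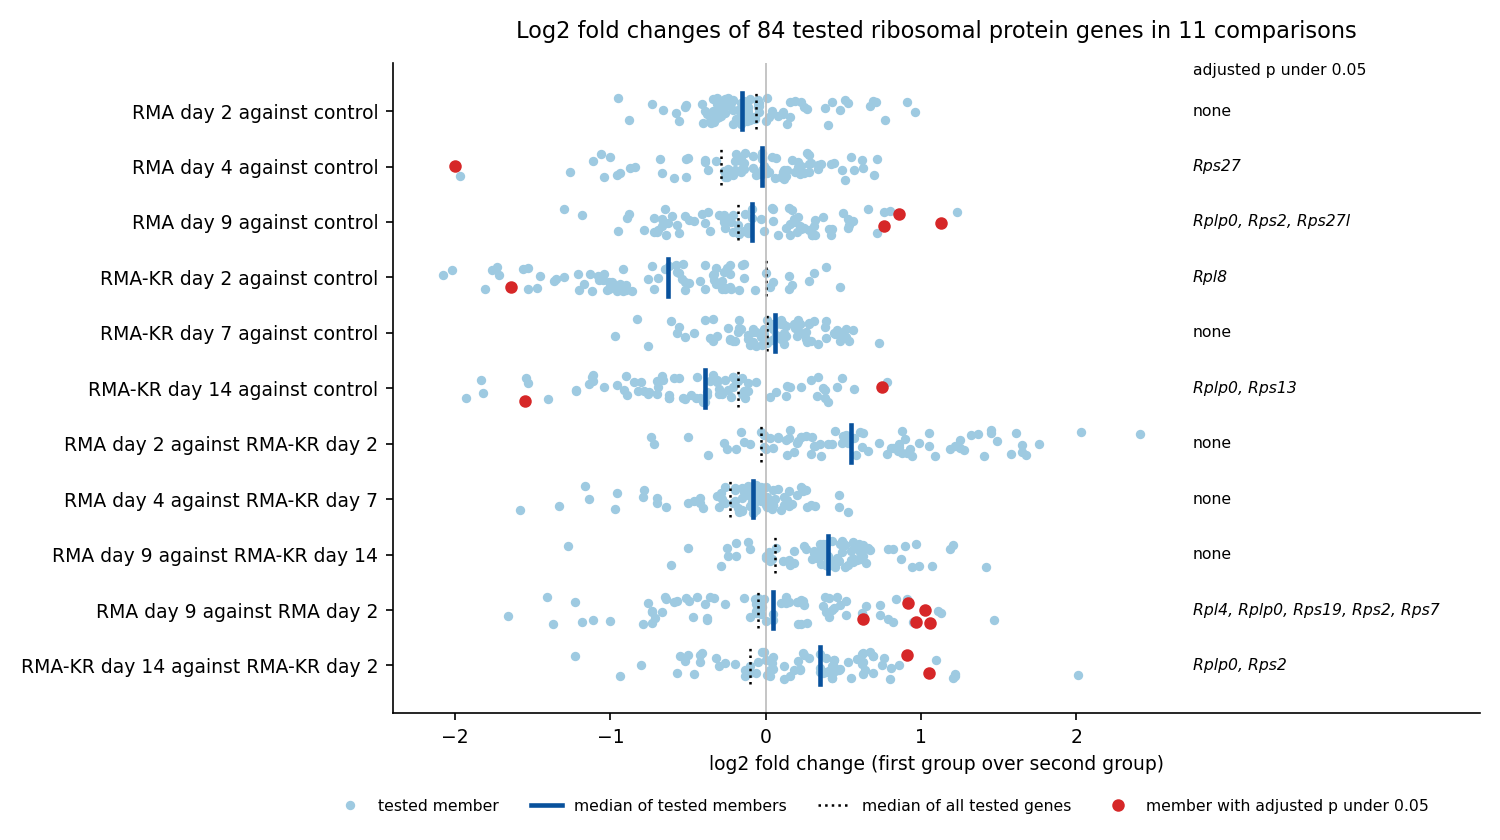
Log2 fold changes of the 84 tested members in 11 comparisons, 1 point per member, with the median of the members (bar) and of all tested genes (dotted); red points and the names at the right are members with an adjusted p under 0.05. The members' median lies at -0.63 on RMA-KR day 2 and at -0.39 on RMA-KR day 14 against control, and at 0.06 on RMA-KR day 7.

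The tumors were compared at matched stages, RMA against the MHC class I-deficient, NKG2D ligand-bearing RMA-KR. On day 2, 71 of 84 members had higher values with RMA than with RMA-KR, with a median of 0.55 against -0.03 over all genes. No member was called by edgeR with all libraries (0.339% of all genes called, and 0.304% past a fold of 2), 26 (31.0%) had an unadjusted p under 0.05 against 12.3% of all genes, and DESeq2 called 10, among 393 of 17097 genes. The smallest adjusted p was 0.0775, for Rpl8. Rpl11, Rpl39 and Rplp2 had the highest values, at 2.41 ± 0.81, 2.03 ± 0.49 and 1.76 ± 0.46, and Rps29, Rpl35 and Rps23 the lowest, at -0.74 ± 1.06, -0.72 ± 0.89 and -0.50 ± 0.69. With the 20 libraries, in which neither group lost a library, 5 members were called (0.323% of all genes), Rpl8, Rplp2, Rpsa, Rpl39 and Rps20. Rpl8 was then at 1.30 ± 0.17 (adjusted p = 0.00653 by the edgeR test) and Rpsa at 1.51 ± 0.32 (adjusted p = 0.049). The B cell list, at 0.0222% to 0.0288% of counts against 0.0311% to 0.0478%, and the plasma cell list, at 0.0290% to 0.0387% against 0.0415% to 0.0562%, were lower with RMA than with RMA-KR in every library. Of their most abundant genes, Ighm overlapped, at 212 to 272 normalized CPM against 232 to 437. Xbp1 did not, at 161.5 to 195.6 against 220.1 to 268.5.

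At the middle stage, RMA day 4 against RMA-KR day 7, edgeR called no member of 84 (0.643% of all genes called, and 0.503% past a fold of 2), 4 (4.76%) were under an unadjusted p of 0.05 against 14.2% of all genes, and DESeq2 called 1, Rps27a, among 428 of 17097 genes. Here the members' median was -0.08 against -0.23 over all genes. The days differ, and this value turned with the libraries used: with the 20 libraries the median was 0.50, 71 of 84 members were higher with RMA, and Rpl8 and Rplp2 were called (0.501% of all genes), at 0.92 ± 0.20 and 1.76 ± 0.38 (adjusted p = 0.0383 for either by the edgeR test). Then 23 of 84 had an unadjusted p under 0.05, against 8.65% of all genes. With all libraries the lowest values were those of Rps12, Rps27a and Rps27, at -1.58 ± 0.76, -1.33 ± 0.47 and -1.16 ± 0.48, and the highest those of Rps27l, Rpl36al and Rps6, at 0.53 ± 0.29, 0.47 ± 0.33 and 0.47 ± 0.61. The granulocyte list had 0 counts in the RMA day 4 libraries. Its share was above 0 in each RMA-KR day 7 library, at only 8.721e-06% to 0.0003566% of counts. Beside the 2 kept RMA-KR day 7 libraries, the dendritic cell list was higher on RMA day 4, at 0.0749% to 0.0867% against 0.0515% and 0.0622%, and handling genes were lower, at 0.853% to 0.932% against 1.598% and 1.741%. Itgax made up most of the dendritic cell share, at 759 to 885 normalized CPM against 594 and 518. With all libraries 2 of the 6 tested genes of that list had higher values on RMA day 4, with a median of -1.65.

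At the late stage, RMA day 9 against RMA-KR day 14, edgeR called no member of 84 (0% of all genes called, and 0% past a fold of 2), 7 (8.33%) were under an unadjusted p of 0.05 against 7.31% of all genes, and DESeq2 called 0 among its 46 called genes. The median of the members was 0.40 against 0.06 over all genes, with 72 of 84 higher with RMA. With the 20 libraries 13 of 84 were under an unadjusted p of 0.05, against 6.65% of all genes. Neither group lost a library there. Rplp0 and Rps2 hardly differed in mean between the tumors, at 0.02 ± 0.18 and 0.07 ± 0.23, while Rplp2, Rpl8 and Rplp1 had values of 0.90 ± 0.45, 0.57 ± 0.30 and 0.61 ± 0.31. The highest values were those of Rpl24, Rpl28 and Rpl36a, at 1.42 ± 1.59, 1.21 ± 1.16 and 1.19 ± 0.90, and the lowest those of Rpl11, Rpl23a and Rpl5, at -1.27 ± 0.79, -0.61 ± 1.18 and -0.50 ± 0.58. With RMA the NK cell list was higher, at 4.07% to 4.44% of counts against 3.23% to 3.72%, and the B cell list lower, at 0.0318% to 0.0368% against 0.0432% to 0.0581%, without overlap. Ighm, which made up most of the B cell share, overlapped, at 329 to 378 normalized CPM against 363 to 482.

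The course of each tumor was taken from the late against the early libraries. With RMA, 5 of 84 members rose from day 2 to day 9, Rps7, Rplp0, Rps2, Rps19 and Rpl4 (2.87% of all genes called), and none fell. Rps7, which like Rpl11 can bind Mdm2, stood at 41.3, 44.02 and 53.3 normalized CPM on day 2 and at 105, 108 and 76.5 on day 9, with 66.4, 65.3, 66.4 and 64.3 in control. Rps19, which is needed to mature the small subunit RNA, stood at 47.5, 68.5 and 60.1 on day 2 and at 116, 128 and 89.3 on day 9, with 54.2, 63.98, 66.2 and 77.4 in control. For both genes every day 9 library was above every day 2 library. The log2 fold changes with edgeR's adjusted p were 1.06 ± 0.23 (0.0151) for Rps7, 1.03 ± 0.18 (0.00317) for Rplp0, 0.97 ± 0.23 (0.0229) for Rps2, 0.92 ± 0.24 (0.0385) for Rps19 and 0.63 ± 0.15 (0.0201) for Rpl4. Past a fold of 2 there were 2, Rps7 and Rplp0 (2.01% of all genes). The Rplp0 call stayed with each of the 6 libraries left out in turn. Leaving out RMA day 2 replicate 1, RMA day 9 replicate 1 or RMA day 9 replicate 2 ended the Rps7, Rps2, Rps19 and Rpl4 calls, and so did RMA day 2 replicate 2 for Rps7, Rps19 and Rpl4, and RMA day 2 replicate 3 for Rps19. The log2 values in these runs were 1.00 to 1.05 for Rps7, 0.79 to 1.00 for Rps2, 0.80 to 1.05 for Rps19 and 0.54 to 0.68 for Rpl4. Total counts ended the Rps2, Rps19 and Rpl4 calls, DESeq2's size factors the Rps19 call and testing without a filter the Rps7, Rps2 and Rps19 calls. With only the 2 groups fitted 0 members were called, and the count without 1 library ran from 1 to 6. Members under an unadjusted p of 0.05 were 19 (22.6%) against 17.2% of all genes, and DESeq2 called 8, among 1320 of 17097 genes. The median was 0.05 against -0.05, and it was -0.03 with DESeq2's size factors and -0.08 with total counts, so it has no settled sign. The lowest values were those of Rpl11, Rpl5 and Rpl9, at -1.66 ± 0.79, -1.41 ± 0.59 and -1.37 ± 0.60, and Rpl35, Rps18 and Rps27l were high without passing, at 1.47 ± 0.90, 1.13 ± 0.32 and 1.11 ± 0.34. The 20 libraries gave 6 calls, the 5 named and Rps18 (2.24% of all genes called), with a median of 0.00 for the members. On day 9 the NK cell list, at 4.07% to 4.44% of counts against 3.49% to 3.71% on day 2, the T cell list, at 0.0870% to 0.103% against 0.0721% to 0.0853%, and the B cell list, at 0.0318% to 0.0368% against 0.0222% to 0.0288%, were higher without overlap. Ighm made up most of the B cell share, at 329 to 378 normalized CPM against 212 to 272. Handling genes, at 0.809% to 1.144% against 1.392% to 1.537%, and nuclear retained RNAs, at 0.0313% to 0.0668% against 0.192% to 0.282%, were lower.

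With RMA-KR, 2 of 84 members rose from day 2 to day 14, Rps2 and Rplp0 (0.392% of all genes called), by 1.05 ± 0.23 and 0.91 ± 0.18 on the log2 scale (adjusted p = 0.0441 and 0.0269 by the edgeR test). Rps2 was past a fold of 2 (0.322% of all genes). The Rps2 call ended without any 1 RMA-KR day 2 library or without day 14 replicate 1 or 2, and the Rplp0 call without day 2 replicate 1 or 2 or day 14 replicate 1 or 2, at 0.89 to 1.15 and 0.76 to 1.00. Both ended with only the 2 groups fitted, at 1.02 and 0.89, and the Rps2 call with DESeq2's size factors, at 1.01, and with total counts, at 0.98. With the 20 libraries 4 members were called (0.395% of all genes), these and Rpl8 and Rps20, all higher on day 14. An unadjusted p under 0.05 was then found for 20 of 84, against 14.2% of all genes. The median of the members was 0.35 against -0.10 over all genes, with 59 of 84 higher, 13 (15.5%) under an unadjusted p of 0.05 against 15.0% of all genes, and 6 called by DESeq2, among 573 of 17097 genes. Among the highest values were those of Rpl11 and Rps27a, at 2.01 ± 0.80 and 1.22 ± 0.51, and the lowest were those of Rps13, Rpl9 and Rpl24, at -1.23 ± 0.39, -0.94 ± 0.60 and -0.80 ± 1.57. Rpl11 was high in RMA-KR day 14 replicate 3 only, at 24.4 normalized CPM against 4.97 and 6.45 in the other 2 and 3.05, 1.45 and 4.33 on day 2. On day 14 the macrophage list, at 0.00399% to 0.00767% of counts against 0.00300% to 0.00339% on day 2, and the dendritic cell list, at 0.0804% to 0.0874% against 0.0504% to 0.0614%, were higher without overlap. Cd68, of the macrophage list, stood at 36.1 to 77.8 normalized CPM against 5.46 to 27.35. The dendritic cell share was mostly Itgax, at 787 to 892 normalized CPM against 455 to 599. Of the 6 tested genes of that list 3 had higher values, with a median of -0.06. Nuclear retained RNAs were lower, at 0.0265% to 0.0805% against 0.156% to 0.224%, with a list median of -1.25 and 3 of 8 under an unadjusted p of 0.05 but 0 called by edgeR.

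Other genes of translation were set beside the members by lists. Of 22 genes for elongation factors and other TOP mRNAs, 1 was called on RMA-KR day 2, Vim, an intermediate filament gene with a TOP mRNA, at -0.94 ± 0.18, and the median of the list was -0.54, with 13 of 22 under an unadjusted p of 0.05. On RMA day 9 Npm1, a nucleolar chaperone, and Eif3k, a subunit of initiation factor eIF3, rose, at 0.80 ± 0.22 and 0.70 ± 0.16, with a list median of 0.20. On RMA-KR day 14 Pabpc1, the poly(A) binding protein, rose by 0.79 ± 0.17. It stood at 182, 142, 137 and 170.5 normalized CPM in control and 286, 265 and 268 on RMA-KR day 14, with no overlap. Vim was higher on RMA day 4 than on RMA-KR day 7, at 0.93 ± 0.17, and Eif3k on RMA day 9 than on day 2, at 0.77 ± 0.18. Adjusted p-values of these genes ran from 0.00683 to 0.0489 by the edgeR test, and the list had 0 calls by edgeR in the remaining 6 comparisons, with 0 to 8 of 22 under an unadjusted p of 0.05.

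Of 31 initiation factors, on RMA day 4 Eif5a, Eif2s1 and Eif4h rose and Eif4a2 and Eif1 fell, and on RMA day 9 Eif2s1, Eif5a, Eif3m and Eif6 rose. Eif5a, the hypusinated factor that helps peptide bond formation, stood at 338, 546, 535 and 451 normalized CPM in control, 863, 1116 and 993 on RMA day 4 and 1053, 1072 and 706 on RMA day 9. On the RMA-KR side it stood at 683, 636, 832, 695 and 948 on day 7 and at 682, 842 and 547 on day 14. RMA day 4 and 9 were above control without overlap, all 5 RMA-KR day 7 libraries were also above it, and RMA-KR day 14 was above it by a small margin. Its log2 fold change was 1.08 ± 0.18 on RMA day 4 and 1.01 ± 0.18 on RMA day 9 (adjusted p = 0.00202 and 0.00275 by the edgeR test). From RMA day 2 to day 9, 5 rose, led by Eif6 at 1.29 ± 0.19, which keeps the subunits apart, and Eif4a2 fell by 0.92 on the log2 scale. Eif4h rose from RMA-KR day 2 to day 14, by 0.80 ± 0.16. In none of the 3 comparisons of RMA-KR with control was any of the 31 called by edgeR, with 5 under an unadjusted p of 0.05 in each. Of all genes, 0.0994%, 0.0175% and 1.22% were called on RMA-KR day 2, 7 and 14, so 0 of 31 is near that share. Against control the median of the list was -0.11, 0.28 and 0.31 on RMA day 2, 4 and 9 and -0.18, 0.23 and 0.23 on RMA-KR day 2, 7 and 14.

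Of 40 ribosome biogenesis factors, Nhp2 and Dkc1, of the box H/ACA particles, and Pa2g4, a growth regulator of the nucleolus, rose on RMA day 4, at 1.34 ± 0.29, 0.84 ± 0.20 and 1.19 ± 0.27. Nhp2 also rose on RMA day 9 against control, at 1.29 ± 0.29, and against RMA day 2, at 1.31 ± 0.32. It stood at 25.1, 32.1, 29.00 and 39.2 normalized CPM in control and at 76.03, 89.7 and 73.2 on RMA day 4. The median of the list against control was highest on RMA-KR day 7, at 0.52, with 0 called by edgeR and 6 under an unadjusted p of 0.05. There the list took 0.343% to 0.431% of counts in the 3 libraries that stood apart and 0.2605% and 0.2783% in the 2 kept, against 0.2312% to 0.2747% in control. Of 77 tested mitochondrial ribosomal proteins, which serve the separate ribosome of that organelle, 2 rose on RMA day 9 against control, led by Mrpl20 at 1.26 ± 0.24, and 5 against RMA day 2, led by Mrpl54 at 1.61 ± 0.40. Their median was 0.49 and 0.58 in these comparisons, where that of the 84 cytosolic members was -0.09 and 0.05. On RMA-KR day 14 Mrpl10 rose, at 0.99 ± 0.24, and on RMA-KR day 2 the median was -0.04, with 0 called by edgeR and 3 under an unadjusted p of 0.05.

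Among 24 regulators of TOP mRNAs and of ribosomal protein transcription, Myc rose on RMA day 4, RMA day 9 and RMA-KR day 14, at 1.2 ± 0.22, 0.84 ± 0.22 and 1.13 ± 0.22 (adjusted p = 0.00416, 0.0387 and 0.0102 by the edgeR test). It stood at 57.3, 91.3, 74.8 and 62.9 normalized CPM in control, 144, 178 and 171 on RMA day 4 and 160.4, 153 and 158 on RMA-KR day 14. It was also above control in the 3 RMA-KR day 2 libraries, at 128, 101 and 102, where the members were lowest. Tsc2, an inhibitor of mTORC1, fell on RMA-KR day 14, at -1.13 ± 0.25 (adjusted p = 0.02 by the edgeR test). The genes for mTOR, its partners, the S6 kinases and Larp1 had no call in any of the 11 comparisons. Larp1 was still above control without overlap on RMA day 4, at 29.6 to 31.5 normalized CPM against 8.99 to 16.55. So it was on RMA day 9, at 26.0 to 39.6, and on RMA-KR day 14, at 18.8 to 34.2. Its other groups overlapped control. Of 9 tested genes for ribosome stress and p53 targets, Bax, a pore-forming death protein, rose from RMA day 2 to day 9, at 0.89 ± 0.22. Of 16 proliferation genes edgeR called 15 higher on RMA day 4, 12 on RMA day 9 and 9 on RMA-KR day 14, and all 16 had higher values there. It called 0 on either day 2 or on RMA-KR day 7, where 3 or 4 were under an unadjusted p of 0.05 and 14, 12 and 15 had higher values on RMA day 2, RMA-KR day 2 and RMA-KR day 7. The part of proliferation in the members' values was not tested.

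**Figure D5:**
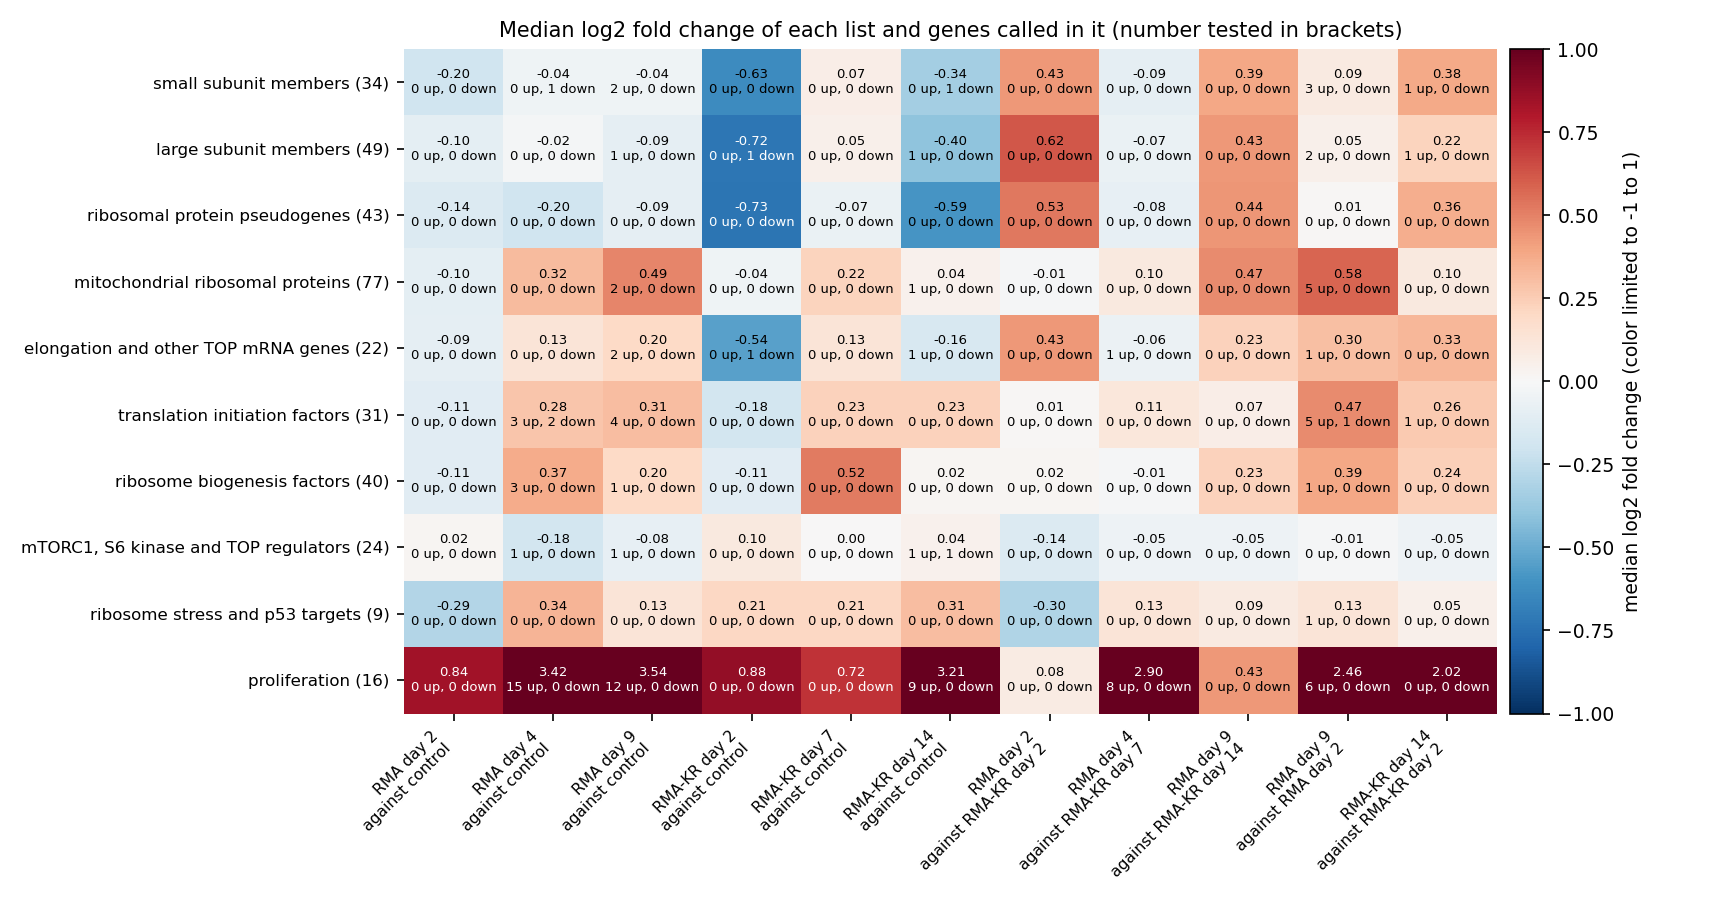
Median log2 fold change of each list (color and upper number) in 11 comparisons, with the genes called higher and lower. On RMA-KR day 2 the medians are -0.63 and -0.72 for small and large subunit members, -0.73 for pseudogenes, -0.54 for elongation and other TOP mRNA genes and -0.04 for mitochondrial ribosomal proteins.

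The NK cell label was checked with 14 marker genes, all of them counted in each library. Gzma, a granzyme, was the most abundant at 9956 normalized CPM, and Ncr1, which encodes NKp46, stood at 3113. On RMA day 4 and day 9 Gzmb rose, at 1.44 ± 0.30 and 1.18 ± 0.30, and Eomes fell on day 9, at -0.75 ± 0.19. Of the T cell list, which would also mark RMA cells, Cd247 and Trbc1, which NK cells transcribe as well, were the highest at 328 and 286. Cd28 stood at 106.2, Trbc2 at 102.8, Cd3g at 10.2, Trac at 9.98 and Cd3d at 8.34, and Cd3e at 0.644 with 0 counts in 12 libraries, so T cell transcripts were low but not absent. The list took 0.0695% to 0.103% of each library's counts. Among B cell markers Ighm was highest at 335. Of the plasma cell list Xbp1 was highest at 235, of the macrophage list Cd68 at 22.3, of the granulocyte list Ngp at 0.529, of the dendritic cell list Itgax at 695, of the red blood cell list Alas2 at 0.545 and of the ILC1 list Il7r at 21.7. The only call in these lists of other cells, in 11 comparisons, was Trbc2, which was higher on RMA day 9 than on day 2, at 0.74 ± 0.19.

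Signs of handling and of nuclear RNA moved between groups as well. Immediate early and handling genes took 1.27% to 1.71% of the counts on RMA-KR day 2, against 1.394% to 1.615% in the 3 control libraries that did not stand apart, 0.853% to 0.932% on RMA day 4 and 0.809% to 1.144% on RMA day 9. In this list Hspa8 rose on RMA day 4 and day 9, at 0.89 ± 0.21 and 0.79 ± 0.21, Klf2 fell on RMA day 9, at -1.15 ± 0.26, and Egr1 rose on RMA-KR day 14, at 1.84 ± 0.38. From RMA day 2 to day 9 Klf2 and Fosb fell, at -1.11 ± 0.27 and -2.76 ± 0.72. The nuclear retained RNA Neat1 fell on RMA day 4 and day 9, at -2.4 ± 0.47 and -2.15 ± 0.47, and Malat1 on day 4, at -1.90 ± 0.46. Both were also lower on RMA day 9 than on day 2, at -2.89 ± 0.50 and -2.57 ± 0.49. None of the nuclear retained RNAs was called by edgeR on RMA-KR day 2, with 0 under an unadjusted p of 0.05. The part of these differences in the members' values was not tested.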

How the data were processed

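The deposited table gave the authors' raw read counts per gene for 24 libraries. Per their methods, the authors trimmed reads with cutadapt 1.10, removed ribosomal RNA reads with Bowtie2 2.2.8, aligned with STAR 2.5.3a and counted with HTSeq 0.6.1p1. Strand setting and treatment of reads with several matches are not given in the sources used here. The table's 48 other columns of values per library and the authors' comparison columns (fold changes, p-values) were not used. Counts of 45237 genes were fitted with edgeR 4.0.16, which drew on limma 3.58.1 under R 4.3.3: filterByExpr on the 7 groups kept 17097 genes, TMM scaling, robust quasi-likelihood F-tests of 11 contrasts, Benjamini-Hochberg adjustment, threshold 0.05. The common biological coefficient of variation was 0.852, so only differences large beside the spread between samples could pass. SE is the absolute log2 fold change over the square root of F. Alternatives were other scalings, filters and sample sets, a block by replicate number, and DESeq2 1.42.0 with and without a fold change prior. The script was tested on simulated data. Sequence, tables and figures used Python 3.11.15, pandas 2.3.3, scipy 1.17.1 and matplotlib 3.10.9. Members and lists were chosen with earlier results of these data known. Named were Rps6, Rpsa, Rplp0, Rplp1, Rplp2, Fau and variants with their parents; in each comparison every called member and the 3 highest and 3 lowest log2 fold changes; the 5 highest and 5 lowest members per kb; untested members; up to 4 called genes per list with the largest change; and the most abundant gene of each marker list. A few of these genes are left unreported. Other genes were chosen after their values were seen. Among them were Rpl39 with RMA and on RMA-KR days 7 and 14, Rps20, Ncr1 and the T cell genes below the most abundant.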

Additional observations from a re-analysis of the deposited data

Results flagged for a closer look

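In the groups of 4 and 5 libraries, 82 sets of values for 41 quantities were searched for a library far from the rest of its group by Dixon's test, and 2 were found, where chance flags about 1 in 20. Mitochondrially encoded genes took 1.298% of the counts in RMA-KR day 7 replicate 1, against 1.013% to 1.082% in the other 4 libraries of the group (gap over range 0.756). Genes of ribosome stress and p53 targets took 0.0779% of the counts in control replicate 3, against 0.06524% to 0.06671% in the other 3 (gap over range 0.883). Neither cause was tested.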

How the results depend on the processing

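Of 110 counts of called members under other settings, 63 lay within 1.5 times the count reported; of 110 medians 98, and of 9 group shares 8, moved by less than their limit. No called member changed direction. For the differences listed here the cause was not tested, except where fewer libraries or genes entered. Called members by DESeq2, without and with its prior, were 5 and 5 on RMA day 4 against control, 5 and 5 on RMA day 9, 16 and 17 on RMA-KR day 2, 2 and 2 on RMA-KR day 7, 9 and 9 on RMA-KR day 14, 10 and 9 for RMA day 2 against RMA-KR day 2, 1 and 1 for RMA day 4 against RMA-KR day 7, 8 and 9 for RMA day 9 against day 2 and 6 and 6 for RMA-KR day 14 against day 2. Without a filter they were 0 on RMA day 4, 1 on RMA day 9, 8 on RMA-KR day 2, 3 for RMA day 2 against RMA-KR day 2, 2 for RMA day 9 against day 2 and 5 for RMA-KR day 14 against day 2. With at least 10 counts in every library (7800 genes) they were 4 on RMA day 4, 5 on RMA-KR day 14, 2 for RMA day 2 against RMA-KR day 2 and 8 for RMA day 9 against day 2. With only the 2 groups compared they were 3 on RMA day 4, 5 on RMA day 9, 2 on RMA-KR day 2 and 0 in either late against early comparison. With total counts they were 1 on RMA day 9, 0 on RMA-KR day 2, 1 on RMA-KR day 14, 2 for RMA day 9 against day 2 and 1 for RMA-KR day 14 against day 2; DESeq2's size factors gave 1 in the last, and TMM from genes that are not members gave 2 on RMA day 4. With the 20 libraries, a setting chosen after the data were seen, they were 0 on RMA day 4, 5 for RMA day 2 against RMA-KR day 2, 2 for RMA day 4 against RMA-KR day 7 and 4 for RMA-KR day 14 against day 2.

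Replicate numbers did not pair the libraries: 2 of 34 pairs of same-numbered libraries had a correlation over 0.1, within -0.12 to 0.20. With the replicate block, called members were 0 on RMA-KR day 2, 1 on RMA-KR day 14 and 1 for RMA-KR day 14 against day 2. It ended the calls of Rpl8 on RMA-KR day 2 (-1.52), Rps13 on RMA-KR day 14 (-1.64) and Rps2 for RMA-KR day 14 against day 2 (1.05). It also ended those of Rps27 on RMA day 4 (-2.03), where Rpl10 was called instead, and Rps27l on RMA day 9 (1.12), where Rps19 was. With the block, medians were -0.08 on RMA day 2 and 0.02 on RMA day 9. Medians on RMA day 2 were -0.07 with DESeq2's size factors and with DESeq2 with or without its prior, -0.09 with 10 counts in every library and -0.08 with the 20 libraries. On RMA-KR day 2 the median was -0.47 with the prior. With total counts medians were -0.20 on RMA day 9 and -0.08 for RMA day 9 against day 2. With the 20 libraries they were -0.50 on RMA-KR day 7 and 0.50 for RMA day 4 against RMA-KR day 7, and the share on RMA-KR day 7 was 0.6565%. Total counts moved the median of all genes by over 0.1 on RMA day 4 (-0.29 to -0.41), RMA day 9 (-0.18 to -0.29), RMA day 4 against RMA-KR day 7 (-0.23 to -0.35) and RMA day 9 against day 2 (-0.05 to -0.17).

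With 1 library left out in turn, called members ranged from 0 to 1 on RMA day 4, 0 to 4 on RMA day 9, 0 to 0 on RMA-KR day 2, 0 to 2 on RMA-KR day 14, 1 to 6 for RMA day 9 against day 2 and 0 to 3 for RMA-KR day 14 against day 2. Medians ranged from -0.14 to -0.07 on RMA day 2, -0.14 to 0.05 on RMA day 9, -0.48 to -0.35 on RMA-KR day 14, 0.34 to 0.55 for RMA day 9 against RMA-KR day 14 and 0.01 to 0.17 for RMA day 9 against day 2. They also ranged from -0.18 to 0.10 on RMA day 4 and from -0.04 to 0.20 on RMA-KR day 7. For RMA day 4 against RMA-KR day 7 the range was -0.26 to 0.04, and for RMA-KR day 14 against day 2 it was 0.22 to 0.42. Depth limits the members under 10 normalized CPM, 18 of the 84 tested.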
